A study of Saccharomyces cerevisiae with 12 samples.

Results

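The 10 genes described here make or take up pyrimidines in the yeast Saccharomyces cerevisiae. They are the de novo synthesis genes URA1, URA2, URA3, URA4, URA5, URA6 and URA7, the uracil salvage gene FUR1, and the permease genes FUR4 and FUI1. They were found by their gene symbol in the platform annotation, which gave 10 probe sets, 1 for each gene, among 10928 probe sets on the array and 5449 S. cerevisiae genes. The choice was made with values of all 4 times of these same arrays known, FUR1 on day 6 among them. The differences of these 10 genes between times are therefore a description, and no p-value is given for them.

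The strain was CENPK 113-7D, a haploid laboratory strain, in batch culture on SD medium with 2% glucose. Affymetrix arrays read total RNA from 4 times with 3 arrays each: log phase, and days 2, 6 and 10, which the sample labels count from stationary phase and the series' design text from the start of cultivation. All 12 arrays share the strain, the medium and the extraction kit, and the labels name no mutation or drug. Separate cultures are not stated, so the spread between 3 arrays may be technical.

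Pyrimidine nucleotides are needed for RNA and DNA, for the sugar nucleotides of the cell wall and glycogen, and for phospholipid synthesis. Yeast builds the ring from glutamine, bicarbonate and aspartate, attaches ribose phosphate to give OMP and then UMP, and phosphorylates UMP to UTP, from which CTP is made. The pathway is limited by UTP, which inhibits the URA2 protein, and several of its genes are activated by the transcription factor Ppr1 when intermediates of the pathway accumulate. Cells can instead take up uracil through Fur4 or uridine through Fui1, and Fur1 joins uracil to ribose phosphate to make UMP.

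Values are the log2 signal of a probe set, and differences are log2 differences with the standard error of a limma fit to all genes and all 12 arrays. A gene is called where the Benjamini-Hochberg adjusted p over all genes is under 0.05. Other pyrimidine genes with a p-value below come from a list chosen with earlier results of these data known. They were named because they were called with a difference of at least 1 in some comparison. Their p-values were partly set by that choice and are a description. The deposited values were read as log2 from their range. The scale has a floor, since probe sets of another yeast species on the same array had a 95th percentile of 5.82, so the changes of dim genes are compressed. The lowest value of any of the 10 genes on any array, 6.43 for FUR4 on day 6, lay above that. The 6 probe sets of the other species whose genes carry the same names as members (fur4 and ura1 to ura5) stayed between 5.19 and 5.55. Signals of different probe sets are not compared with each other.

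As a check of the growth phases, the stationary phase genes HSP12, HSP26, SPG1, SPG4 and CTT1 were all called higher than in log phase on days 2, 6 and 10, though CTT1 on day 10 (0.87) was at -0.10 centred on hybridisation controls. Log phase replicate 3 stood apart in some of them: HSP12 read 10.45 there and at most 9.09 in the others, HSP26 9.12 against 7.78 and 7.74, and SPG4 7.11 against 8.04 and 7.84. URA2, URA7, FUR4 and FUI1 were also highest in that array among log phase arrays, and URA1 by a small margin. STE2, the receptor gene of MATa cells, stood at 9.74 in log phase, and STE3 of MATalpha cells at 6.47, against a background of 5.84 there. RNA integrity was followed by the excess of the 3' over the 5' signal, averaged over 8 control genes. This excess averaged 1.25 ± 0.07 in the 3 log phase arrays (SD), 0.86 ± 0.24 on day 2, 1.65 ± 0.05 on day 6 and 1.28 ± 0.07 on day 10. On day 2 it was 1.13 in replicate 1 and 0.75 and 0.69 in the other arrays. All differences are relative to the other genes of an array. Centring on bacterial and phage hybridisation controls moved the median gene by -0.42, -1.19 and -0.97 for days 2, 6 and 10 against log phase. Between days 2 and 6 the same centring moved it by -0.77, and between days 6 and 10 by 0.22. Without the control bioB these shifts were -0.05, -0.86, -0.64, -0.81 and 0.21. For the 10 genes, values under these centrings are given below where they turn a direction from log phase.

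The pyrimidine genes stood lowest on day 6 and were higher again on day 10. All 10 were called lower on day 6 than in log phase, where 41.1% of all genes were, and all 10 were called higher on day 10 than on day 6, where 28.8% of all genes were. Both held for 10 of 10 members and for 19.9% of all genes. The lowest mean of the 4 times fell on day 6 for 9 of 10, against 22.6% of all genes, and the exception was FUI1, whose lowest mean was on day 2. In bulk RNA, a lower signal from fewer expressing cells and from less RNA per cell cannot be told apart.

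**Figure D1:**
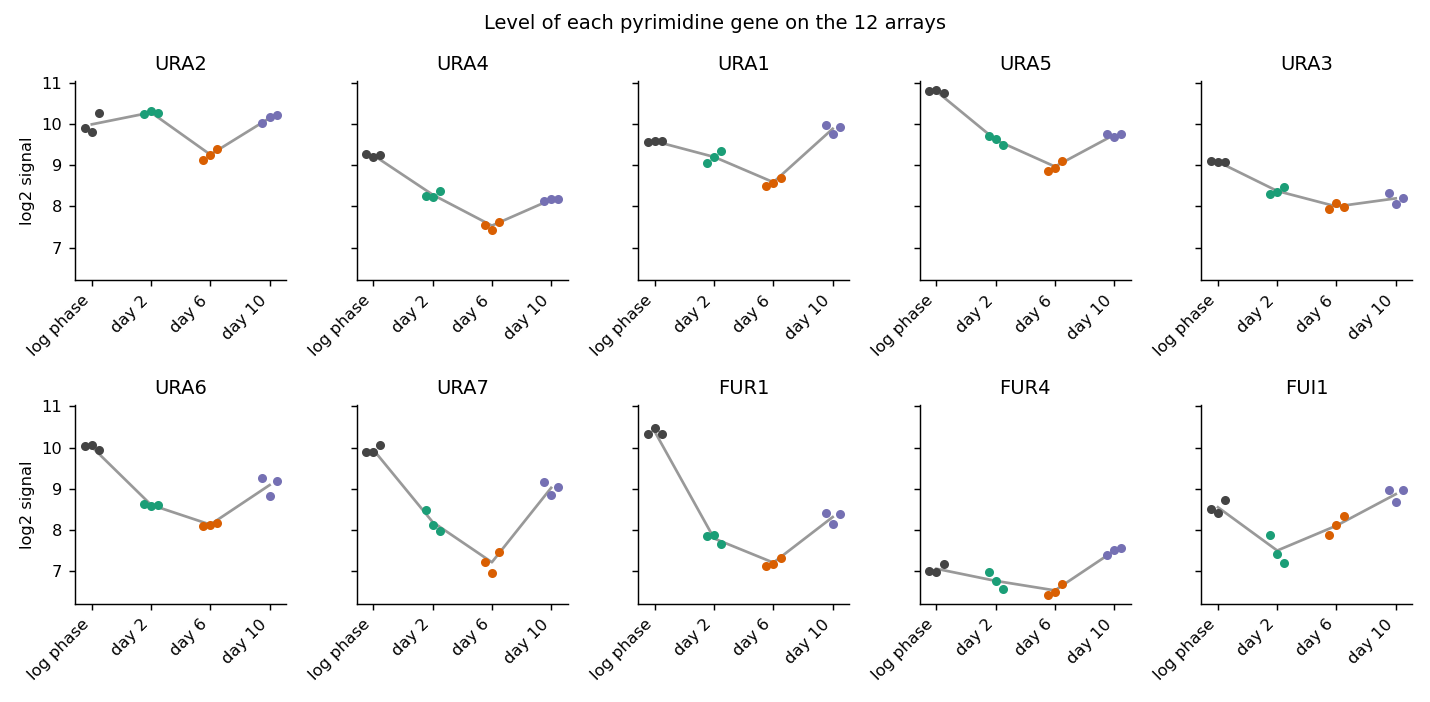
Log2 signal (vertical axis) of the 10 pyrimidine genes on each of 12 arrays, in order of the pathway, with 3 points a time and a grey line through the means. Day 6 is the lowest time in every panel but that of FUI1; the height of a panel is not comparable between genes, since each has its own probe set.

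URA2 encodes the enzyme that makes carbamoyl phosphate and joins it to aspartate, the entry to the pathway. It stood at 9.91, 9.80 and 10.26 in log phase and at 10.25, 10.32 and 10.26 on day 2. On day 6 its arrays read 9.13, 9.25 and 9.40, and on day 10 they read 10.03, 10.18 and 10.22. URA2 thus differed in order from the other members: its day 2 arrays were as high as the highest log phase array, and only day 6 lay apart from the other times. The difference from log phase was -0.73 ± 0.10 on day 6 and 0.15 ± 0.10 on day 10, the latter not called, though at 0.29 and called higher without log phase replicate 3; centred on the hybridisation controls it was -0.82 on day 10, and -0.49 without bioB. On day 2 it was 0.29 ± 0.10, and -0.13 centred on the hybridisation controls. That day 2 call was lost without log phase replicate 1 (0.25), log phase replicate 2 (0.19) or day 2 replicate 2 (0.27). From day 2 to day 6 the difference was -1.02 ± 0.10.

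URA4 encodes dihydroorotase, which closes the ring. Its arrays read 9.27, 9.21 and 9.25 in log phase, 8.24, 8.24 and 8.38 on day 2, 7.56, 7.42 and 7.63 on day 6, and 8.14, 8.19 and 8.17 on day 10. No 2 times overlapped, and the level went down in steps of -0.96 ± 0.06 to day 2 and -0.75 ± 0.06 to day 6 before a difference of 0.63 ± 0.06 to day 10. Day 10 remained 2.11-fold below log phase.

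URA1 encodes dihydroorotate dehydrogenase, which in S. cerevisiae is a cytosolic enzyme that hands electrons to fumarate and so needs no respiration. It read 9.55, 9.59 and 9.60 in log phase, 9.04, 9.21 and 9.35 on day 2, 8.51, 8.57 and 8.69 on day 6, and 9.98, 9.74 and 9.93 on day 10. Its times did not overlap either, but the highest was day 10 and not log phase. Its differences from log phase were -0.38 ± 0.08, -0.99 ± 0.08 and 0.30 ± 0.08 on days 2, 6 and 10, while centred on the hybridisation controls day 10 was at -0.67, and at -0.34 without bioB. Between day 6 and day 10 URA1 differed by 1.29 ± 0.08, or 2.45-fold, which put it at number 71 from the highest of 5449 genes.

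URA5 encodes the main orotate phosphoribosyltransferase, which adds ribose phosphate to orotate to give OMP. Arrays read 10.80, 10.82 and 10.75 in log phase, 9.70, 9.65 and 9.49 on day 2, 8.87, 8.93 and 9.10 on day 6, and 9.75, 9.69 and 9.77 on day 10. Days 2 and 10 overlapped, and both lay between log phase and day 6. Against log phase URA5 differed by -1.18 ± 0.07, -1.82 ± 0.07 and -1.05 ± 0.07 on days 2, 6 and 10.

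URA3 encodes OMP decarboxylase, which yields UMP, and is mutated in many uracil-requiring laboratory strains. In this strain it was well above background at every time, with 9.09, 9.08 and 9.08 in log phase, 8.30, 8.36 and 8.46 on day 2, 7.93, 8.08 and 7.99 on day 6, and 8.32, 8.07 and 8.20 on day 10. Log phase lay apart, while day 10 overlapped day 2 above it and day 6 below it. URA3 differed from log phase by -0.71 ± 0.07, -1.08 ± 0.07 and -0.89 ± 0.07 on days 2, 6 and 10. Its difference of 0.20 ± 0.07 from day 6 to day 10 was the smallest of the 10 genes. That call was lost in 4 of the 6 cases in which a day 6 or day 10 array was left out: without day 6 replicate 1 (0.16) or 3 (0.19), and without day 10 replicate 1 (0.13) or 3 (0.19).

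URA3 is also read by 3 control probe sets that lie along its transcript, which the rule did not use. The one near the 5' end read 8.35, 8.41 and 8.40 in log phase, 6.92, 7.06 and 7.08 on day 6, and 7.44, 7.30 and 7.48 on day 10. The one near the 3' end read 8.73, 8.65 and 8.71 in log phase, 7.84, 7.93 and 7.91 on day 6, and 8.04, 7.81 and 7.92 on day 10. All 3 were lower on day 6 than in log phase, at -1.37 at the 5' end, -1.16 in the middle and -0.80 at the 3' end. From day 6 to day 10 they differed by 0.38, 0.19 and 0.03 in the same order, and at the 3' end days 6 and 10 overlapped. The dip on day 6 below the other stationary days was thus read at the 5' end and in the middle, and not at the 3' end, where day 2 minus log phase was already -0.75. The 3' minus 5' signal of URA3 averaged 0.31 ± 0.07 over the 3 log phase arrays (SD), then 0.20 ± 0.31, 0.87 ± 0.05 and 0.52 ± 0.08 over those of days 2, 6 and 10. The mean over the other 7 control genes was 1.39 ± 0.07 in log phase, then 0.95 ± 0.23, 1.76 ± 0.06 and 1.39 ± 0.07. Both were highest on day 6, but on day 10 the other 7 were back at their log phase value and URA3 was above its own. The part of RNA integrity in the day 6 values of the other pyrimidine genes, each read by 1 probe set, was not tested array by array. The mean 3' minus 5' signal of all 8 control genes, URA3 among them, was used as a covariate, an alternative added after the data were seen. With it the differences of the 10 genes on day 6 from log phase ran from -3.26 (FUR1) to -0.72 (URA2). From day 6 to day 10 they ran from 0.13 (URA3, not called) to 2.24 (URA7). From day 2 to day 6 they ran from -1.94 (URA7) to -0.24 (URA3). In that comparison URA1 (-0.28), URA3, URA6 (-0.65) and FUI1 (-0.44) were not called. The slope of this fit rests on the spread within times, widest on day 2 (SD 0.24). No share of all genes is given for this fit, so its calls are named gene by gene and not counted.

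**Figure D2:**
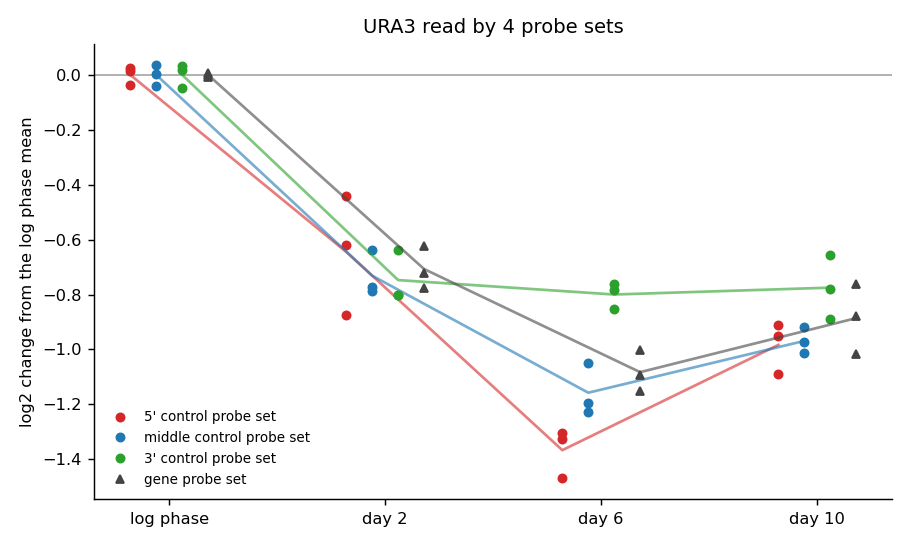
Log2 change of URA3 from its log phase mean (vertical axis) at the 4 times, for the gene's own probe set and for control probe sets near the 5' end, in the middle and near the 3' end; points are the 3 arrays of a time and lines join the means. On day 6 the 5' probe set is at -1.37 and the 3' probe set at -0.80, and the latter stays level from day 2 to day 10.

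URA6 encodes the kinase that turns UMP into UDP. It read 10.05, 10.06 and 9.94 in log phase, 8.64, 8.59 and 8.61 on day 2, 8.11, 8.12 and 8.18 on day 6, and 9.26, 8.84 and 9.19 on day 10. All 4 times lay apart, in the order log phase, day 10, day 2 and day 6. The difference from log phase was -1.41 ± 0.09, -1.88 ± 0.09 and -0.92 ± 0.09 on days 2, 6 and 10.

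URA7 encodes the main CTP synthase, which makes CTP from UTP at the end of the pathway. Its arrays read 9.89, 9.88 and 10.07 in log phase and 8.49, 8.11 and 7.99 on day 2. They read 7.24, 6.96 and 7.47 on day 6 and 9.18, 8.86 and 9.04 on day 10. URA7 had the widest swing among the synthesis genes, and its times did not overlap. It was -1.75 ± 0.14 from log phase on day 2 and -2.72 ± 0.14 on day 6, 6.61-fold lower and number 11 from the lowest of 5449 genes. From day 6 to day 10 the difference was 1.80 ± 0.14, or 3.49-fold, number 17 from the highest, and day 10 was still -0.92 ± 0.14 from log phase.

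FUR1 encodes uracil phosphoribosyltransferase, the enzyme on which the use of free uracil depends. It read 10.33, 10.48 and 10.34 in log phase, 7.86, 7.88 and 7.66 on day 2, 7.13, 7.18 and 7.33 on day 6, and 8.41, 8.15 and 8.39 on day 10. Every time lay apart from the others, and FUR1 was furthest below log phase of the 10 genes on each of the 3 days. The differences from log phase were -2.58 ± 0.09 on day 2, 5.99-fold lower, -3.17 ± 0.09 on day 6, 8.99-fold, and -2.06 ± 0.09 on day 10, 4.18-fold. Counted from the lowest of 5449 genes it was number 7 on day 2, number 4 on day 6 and number 22 on day 10. From day 6 to day 10 it differed by 1.10 ± 0.09.

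FUR4, the uracil permease gene, read 7.01, 7.00 and 7.19 in log phase, 6.99, 6.76 and 6.57 on day 2, 6.43, 6.50 and 6.70 on day 6, and 7.40, 7.53 and 7.58 on day 10. Days 2 and 6 overlapped, and day 10 was the highest time, the same order of times as URA1. Against log phase FUR4 was at -0.29 ± 0.10 on day 2, -0.52 ± 0.10 on day 6 and 0.44 ± 0.10 on day 10, with day 10 at -0.53 when centred on all hybridisation controls and -0.21 when bioB was left out. The day 2 call was lost without log phase replicate 3 (-0.23), without day 2 replicate 3 (-0.19) and with the 3' minus 5' covariate (-0.04). It was also lost when centred on the hybridisation controls without bioB (-0.34).

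FUI1, the uridine permease gene, read 8.52, 8.42 and 8.72 in log phase, 7.88, 7.43 and 7.21 on day 2, 7.88, 8.11 and 8.33 on day 6, and 8.98, 8.67 and 8.97 on day 10. Its low point was day 2, which was also its most variable time (SD 0.34, n = 3), and day 10 overlapped log phase. From log phase it differed by -1.05 ± 0.16 on day 2, -0.44 ± 0.16 on day 6 and 0.32 ± 0.16 on day 10, the latter not called, and at -0.65 when centred on the hybridisation controls or -0.32 without bioB. The day 6 call was lost without log phase replicate 3 (-0.36) or day 6 replicate 1 (-0.33). With the 3' minus 5' covariate FUI1 was at -0.53 on day 2 and -0.96 on day 6. From day 2 to day 6 FUI1 was 0.60 ± 0.16 higher, alone among the 10, but it was at -0.16 centred on the hybridisation controls, -0.20 without bioB and -0.44 with the 3' minus 5' covariate.

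**Figure D3:**
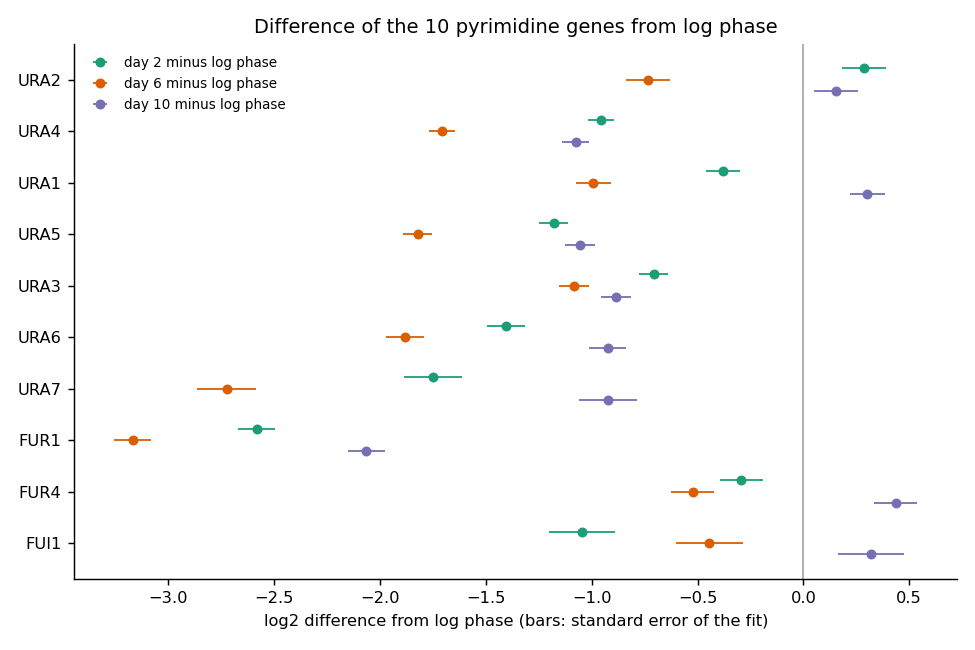
Log2 difference of each pyrimidine gene from log phase (horizontal axis) on days 2, 6 and 10, with the standard error of the fit, n = 3 arrays a time. FUR1 and URA7 lie furthest left on day 6, at -3.17 and -2.72, and the day 10 values of URA1, URA2, FUR4 and FUI1 lie above 0, though below it when centred on the hybridisation controls.

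Over the 10 genes, 9 were called lower than in log phase on day 2 and 1 higher, where 41.5% and 39% of all genes were. The median difference was -1.0, and that of all genes -0.02. On day 6 the median was -1.39, against 0.00 for all genes. On day 10, 6 were called lower and 2 higher, where 39.8% and 39.5% of all genes were, with a median of -0.90 against -0.01. From day 2 to day 6, 8 were called lower and 1 higher (31.9% and 35.2% of all genes), with a median of -0.60 against 0.02. From day 6 to day 10 the 10 higher genes had a median of 0.92 and a range of 0.20 to 1.80, against -0.02 for all genes. The 3 arrays of both times did not overlap for 9 members on day 2 against log phase, 10 on day 6 and 8 on day 10, where 82.6%, 86.4% and 83.7% of all genes did not. From day 2 to day 6 and from day 6 to day 10 this held for 9 members each, against 68.5% and 68.7% of all genes. Without log phase replicate 3, 8 were called lower than log phase on day 2, 9 on day 6 and 6 on day 10, and 1, 0 and 3 were called higher. The comparisons with log phase share its 3 arrays, and those with day 6 share the day 6 arrays. The 6 genes called below log phase on each of days 2, 6 and 10, a property of 28.5% of all genes, were URA3, URA4, URA5, URA6, URA7 and FUR1. Those whose day 10 mean exceeded log phase were both permease genes, URA1 and URA2. Centred on the hybridisation controls all 4 were below log phase on day 10, with FUI1 at -0.65, and without bioB they were below it too, with FUI1 at -0.32.

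The isoenzyme genes URA10 and URA8 were called higher than log phase on days 2 and 6, where URA5 and URA7 were lower, though on day 6 centring on the hybridisation controls turned URA10 and took the call of URA8. URA10 encodes a minor orotate phosphoribosyltransferase alongside URA5. It read 7.23, 7.40 and 7.23 in log phase, 9.34, 9.79 and 9.62 on day 2, 7.75, 8.01 and 7.92 on day 6, and 7.36, 7.40 and 7.30 on day 10. URA10 rose by 2.29 ± 0.10 from log phase to day 2 (limma adjusted p = 1.9e-10), where URA5 was at -1.18, and fell again by 1.69 ± 0.10 from day 2 to day 6 (adjusted p = 1.73e-08). On day 6 it was 0.61 ± 0.10 above log phase (adjusted p = 7.53e-05), but below it under both centrings on hybridisation controls, at -0.58 with bioB and -0.25 without it. On day 10 it was at 0.07 ± 0.10 and not called (adjusted p = 0.557); under these centrings it was called lower, at -0.90 and -0.58.

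URA8 encodes a minor CTP synthase alongside URA7. It read 8.00, 7.91 and 8.06 in log phase, 8.70, 8.83 and 8.99 on day 2, 9.21, 9.32 and 9.30 on day 6, and 8.65, 8.64 and 8.64 on day 10. It rose by 0.85 ± 0.07 on day 2 (limma adjusted p = 9.9e-08) and by 1.29 ± 0.07 on day 6 (adjusted p = 1.23e-09), and fell by 0.63 ± 0.07 from day 6 to day 10 (adjusted p = 6.76e-06). Centred on the hybridisation controls its day 6 value was 0.10 and not called, and 0.43 without bioB. Day 6, where URA8 was highest, was where URA7 was lowest, but under these centrings URA8 was lower on day 6 than on day 2, at -0.33 and -0.37. Between days 6 and 10 URA7 differed by 1.80 in the other direction. On day 10 URA8 was 0.65 ± 0.07 above log phase (adjusted p = 1.61e-06), and at -0.32 centred on the hybridisation controls or 0.01 without bioB. The difference in change between the genes of a pair was not tested.

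**Figure D4:**
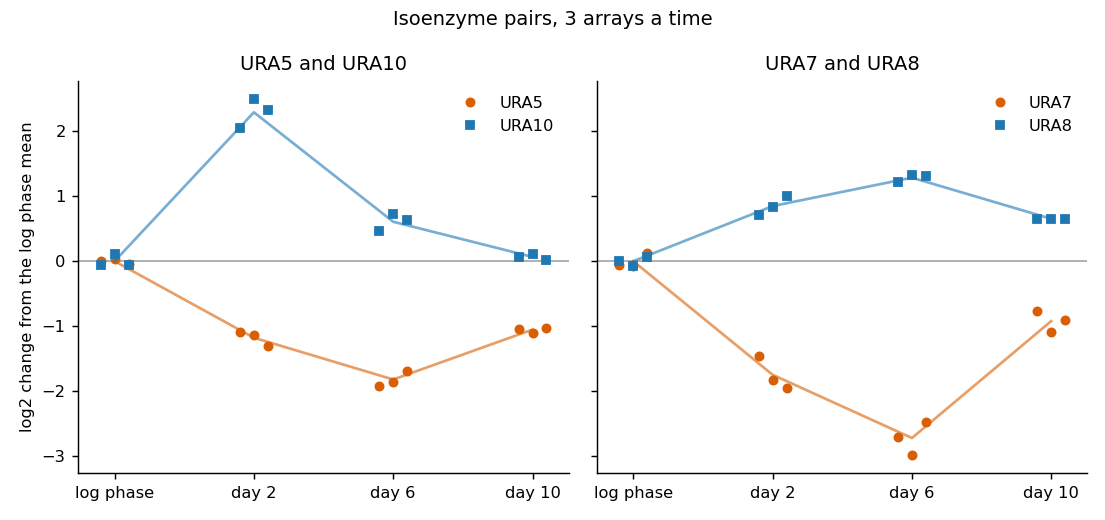
Log2 change from the log phase mean (vertical axis) of URA5 and URA10, the orotate phosphoribosyltransferase genes, and of URA7 and URA8, the CTP synthase genes; points are the 3 arrays of each time and lines join the means. At every stationary time all arrays of URA10 and URA8 lie above 0 and all arrays of URA5 and URA7 below it, with URA10 furthest apart on day 2 and URA8 on day 6; centred on the hybridisation controls, URA10 was below log phase on days 6 and 10 and URA8 on day 10, and URA8 was lower on day 6 than on day 2.

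The other genes of pyrimidine metabolism were taken from a list of 21 chosen by function, of which 20 were measured. On day 2, 13 were called lower than in log phase and 7 higher (41.5% and 39% of all genes), with a median of -0.43. On day 6, 13 were lower and 6 higher (41.1% and 41.6% of all genes), with a median of -0.59. On day 10, 10 were lower and 7 higher (39.8% and 39.5%), with a median of -0.19. From day 6 to day 10, 12 were higher and 6 lower (28.8% and 32.1%), with a median of 0.24, and from day 2 to day 6, 4 were higher and 10 lower (35.2% and 31.9%).

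PPR1, the gene of the activator, fell from 7.62, 7.59 and 7.65 in log phase to 6.75, 6.64 and 6.43 on day 2, a change of -1.01 ± 0.08 (limma adjusted p = 8.26e-08). It was at -0.63 ± 0.08 on day 6 and -0.42 ± 0.08 on day 10 against log phase. The genes known as its targets, URA1, URA3, URA4 and URA10, did not move together. On day 2, 3 were lower than log phase and URA10 was higher (41.5% and 39% of all genes). From day 6 to day 10, 3 were higher and URA10 fell by 0.54 ± 0.10 (28.8% and 32.1% of all genes). That URA10 call was lost under both centrings on hybridisation controls (-0.32 and -0.33). All 4 were called lower on day 6 than on day 2, between -0.38 and -1.69, where 31.9% of all genes were. With the 3' minus 5' covariate URA1 (-0.28) and URA3 (-0.24) were not called. YNK1, the nucleoside diphosphate kinase that makes UTP from UDP, rose by 0.63 ± 0.07 on day 2 and 1.02 ± 0.07 on day 6 (adjusted p = 1.19e-08), though centred on the hybridisation controls day 2 was at 0.21 and not called, and day 6 at -0.17. On day 10 YNK1 was at 0.17 ± 0.07 (adjusted p = 0.0392), at -0.80 centred on those controls and at -0.47 without bioB. This day 10 call was also lost with median centring (0.11), with the trend and robust prior, without log phase replicate 1 (0.14) or 3 (0.14) and without day 10 replicate 1 (0.14) or 3 (0.17).

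Salvage genes other than FUR1 were all lower than log phase on days 2 and 6, 5 of 5, where 41.5% and 41.1% of all genes were, with medians of -0.88 and -1.12. URK1, the uridine kinase gene, read 8.37, 8.27 and 8.46 in log phase, 7.34, 7.11 and 7.07 on day 2, 6.83, 6.84 and 6.95 on day 6, and 7.68, 7.73 and 7.72 on day 10. It was at -1.50 ± 0.07 on day 6 (limma adjusted p = 4.31e-10) and rose by 0.84 ± 0.07 to day 10 (adjusted p = 8.97e-07), the same order of times as FUR1. FCY1, the cytosine deaminase that turns cytosine into uracil, was at -1.12 ± 0.07 on both days. URH1, which splits uridine into uracil and ribose, was at -1.15 ± 0.09 on day 6. All 5, DAS2 and the cytidine deaminase gene CDD1 among them, were called higher on day 10 than on day 6, by 0.29 to 0.84, where 28.8% of all genes were. With the 3' minus 5' covariate FCY1 (0.20) and URH1 (0.21) were not called.

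Transporter genes other than FUR4 and FUI1 went different ways. FCY2, the purine and cytosine permease gene, was at -0.75 ± 0.09 on day 2 and 0.41 ± 0.09 on day 10 against log phase, the latter at -0.56 and -0.23 under the centrings with and without bioB. Between day 6 and day 10 it differed by 0.99 ± 0.09; it was named after its values were seen, and no p-value is given. FCY22, a relative of FCY2, rose by 1.12 ± 0.11 on day 2 (limma adjusted p = 3.28e-07). Its arrays read 6.12, 6.01 and 6.04 in log phase, 6.92, 7.29 and 7.33 on day 2, and 6.14, 6.16 and 6.01 on day 10. The background was 5.84 in log phase and 5.80 on day 10, so FCY22 was dim there and its differences may be compressed. FCY22 was at 0.32 ± 0.11 on day 6, with -0.87 and -0.53 under the centrings with and without bioB, and at 0.04 ± 0.11 on day 10, with -0.92 and -0.60.

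Genes of the branch to thymidylate were called lower than log phase at all 3 days, 4 of 4, a property of 28.5% of all genes. For CDC21 on day 2 (-0.25) that call was lost when centred on the hybridisation controls without bioB, with the 6 arrays of the contrast alone, without log phase replicate 2 (-0.22) or 3 (-0.24), and without day 2 replicate 1, where it was at -0.10. DUT1, which splits dUTP, read 10.37, 10.36 and 10.27 in log phase and between 7.95 and 8.37 on the other 9 arrays. It was at -2.10 ± 0.10, -2.28 ± 0.10 and -2.12 ± 0.10 on days 2, 6 and 10, with day 6 at adjusted p = 1.72e-10 by limma. DCD1, the dCMP deaminase gene, was at -1.99 ± 0.07, -2.24 ± 0.07 and -1.98 ± 0.07. From day 6 to day 10 DCD1 differed by 0.26 ± 0.07 and was called higher, and DUT1 by 0.16 ± 0.10 and was not called. CDC8, the thymidylate kinase gene, was at -1.20 ± 0.08 and CDC21, the thymidylate synthase gene, at -1.14 ± 0.10 on day 10.

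CPA1, a subunit of the carbamoyl phosphate synthetase that serves arginine and not pyrimidines, rose by 2.00 ± 0.09 on day 2 and was 2.64 ± 0.09 above log phase on day 10 (limma adjusted p = 4.43e-11). On day 6 CPA1 was at 1.51 ± 0.09, but at 0.33 and not called when centred on the hybridisation controls, and at 0.66 without bioB. PHM8, a nucleotidase gene, read 6.33, 6.37 and 6.48 in log phase and between 8.07 and 8.64 on the other 9 arrays. It was at 2.08 ± 0.08, 1.84 ± 0.08 and 2.23 ± 0.08 on days 2, 6 and 10 (adjusted p = 6.16e-11 on day 10).

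**Figure D5:**
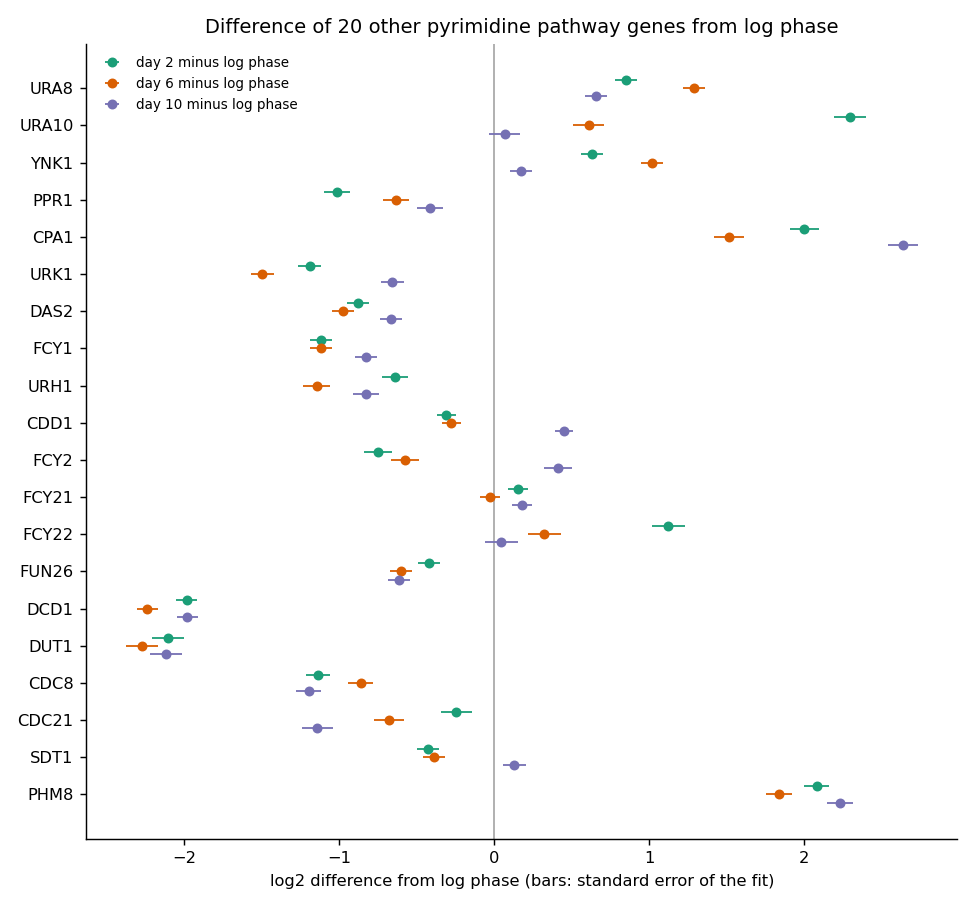
Log2 difference from log phase (horizontal axis) of the 20 measured pyrimidine genes that are not members, on days 2, 6 and 10, with the standard error of the fit, n = 3 arrays a time. CPA1, PHM8, URA10 on day 2 and URA8 lie to the right, and DCD1 and DUT1 lie near -2 at all 3 days. Centred on the hybridisation controls, CPA1 on day 6 was at 0.33, and URA8 was at 0.10 on day 6 and -0.32 on day 10.

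The purine synthesis and salvage genes, 16 measured of 17, had counts of the same kind: 15 were called lower on day 6 than in log phase (median -1.48; 41.1% of all genes), and 15 higher on day 10 than on day 6 (median 0.97; 28.8% of all genes). On day 10, 8 of them were lower than log phase and 3 higher (median -0.19; 39.8% and 39.5% of all genes). Those 3, ADE3, ADE16 and IMD3, were at 0.16 to 0.27. All 16 were called lower on day 10 under both centrings on hybridisation controls. Of all 5449 genes, 4424 were called lower there with bioB and 3674 without it.

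The genes whose values over the 12 arrays were most like those of FUR1, among 5260 others above background, were BCP1, CAF20, RPL34A, HPM1 and VRG4. Their Pearson correlations with FUR1 ran from 0.996 to 0.994. The most opposite were OM14, RIM4, GUT2, SPG1 and ATG34, from -0.997 to -0.995. The 12 arrays fall into 4 times, so such values describe the order of 4 levels and were not tested. BCP1, the closest, went from 9.20 ± 0.06 in log phase to 7.99 ± 0.09, 7.68 ± 0.09 and 8.12 ± 0.08 on days 2, 6 and 10 (SD, n = 3), a narrower range than that of FUR1.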

How the data were processed

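The deposited values are log2 probe set summaries made by the authors with PLIER, per the submitters' processing notes. Which version of PLIER was run, and with what background correction and array normalization, is not stated in those notes. All 12 columns were used. Probe sets were matched through the platform annotation's gene ID to RefSeq's table of S288C (R64), which is not the strain studied; for 47 genes with several probe sets, the one with the highest mean was used. limma 3.58.1 in R 4.3.3 fitted a coefficient for each time to all 12 arrays (8 residual degrees of freedom, 12 arrays limiting the precision) with Benjamini-Hochberg adjustment over 5449 genes. In simulated data for day 2 against log phase the fit, run on 5449 genes, called 32% of 50 genes changed by 0.25, 86% at 0.5 and 100% at 1 and at 2, with 12 false calls. There 5249 genes were unchanged and the noise was independent. In the real comparison 41.5% of all genes were called lower and 39% higher, so these rates need not hold for it.

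The members and the lists were chosen with earlier results of these data known. Named genes are all members, genes of the pathway list called with a difference of at least 1 in some comparison, and the 5 most and 5 least like FUR1; CDD1, FCY2, DAS2, ADE3, ADE16 and IMD3 were added after their values were seen. The labels do not say whether replicate numbers pair the arrays, and the correlations did not settle it. Of 18 same-number pairs, 5 correlated above 0.1. Alternatives were other normalizations, a filter on dim genes, every probe set tested separately, another prior, 6 arrays a contrast, the replicate block, an offset of 16, each array left out, and an RNA integrity covariate added later. Promoter motifs were not analysed here.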

Additional observations from a re-analysis of the deposited data

How the results depend on the processing

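Of the 50 differences of members (10 genes, 5 comparisons), all 50 kept their direction and their side of the threshold with the offset of 16. With quantile normalization and with median centring 49 did so. Under the filter on dim genes, every probe set tested separately, the trend and robust prior and the 6 arrays alone, the differences themselves could not change. Each member has 1 probe set and lies above background, so only the spread or the adjustment could differ there. Separate probe sets are thus no check of the members. All 50 kept their side of the threshold in these settings, and 49 with the 6 arrays alone. The labels name no paired design, and the data did not settle whether there was one. Of 12 arrays, 7 correlated best with an array of their own number. With the replicate number as a block (replicate block) 9 members were lower and 1 higher on day 2 and 10 lower on day 6, all 50 as before.

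Centring on the 27 hybridisation control probe sets turned 6 member differences, and on the 18 without bioB 5; the cause was not tested. With bioB the members called higher on day 2 were 0, on day 10 0 (10 lower), and from day 2 to day 6 0. Of all 5449 genes, this centring left 903 called higher on day 2, and 381 higher and 4424 lower on day 10. From day 2 to day 6 it left 102 higher. The turned values were URA2 on day 2 (-0.13), FUR4, FUI1, URA1 and URA2 on day 10 (-0.53, -0.65, -0.67 and -0.82), and FUI1 from day 2 to day 6 (-0.16). Without bioB the members called higher were again 0 in these 3 comparisons, where 1481, 590 and 90 of all genes were. FUR4, FUI1, URA1 and URA2 on day 10 (-0.21, -0.32, -0.34 and -0.49) and FUI1 from day 2 to day 6 (-0.20) turned. Of the other pathway genes, with bioB, 1 was higher on day 6 (356 of all genes). On day 10, 2 were higher and 17 lower (381 and 4424 of all genes). From day 2 to day 6, 0 were higher and 19 lower (102 and 4571 of all genes). From day 6 to day 10, 2 were lower (343 of all genes). Without bioB these counts for all genes were 542, 590 higher (3674 lower), 90 and 4641, and 328. For the other pathway genes they were 3, 2 higher (15 lower), 0 and 20, and 2. Among those named here, with bioB, the day 6 values of URA10, YNK1 and FCY22 turned to -0.58, -0.17 and -0.87, and the day 10 values of URA8, URA10, YNK1, FCY22, CDD1 and FCY2 to -0.32, -0.90, -0.80, -0.92, -0.52 and -0.56. Without bioB URA10 and FCY22 turned to -0.25 and -0.53 on day 6, and URA10, YNK1, FCY22, CDD1 and FCY2 to -0.58, -0.47, -0.60, -0.19 and -0.23 on day 10. FCY21 and SDT1, not described above, also turned on day 10 under both. From day 2 to day 6, URA8, YNK1, PPR1, FCY1, CDC8, CDD1 and FCY2 turned to -0.33, -0.38, -0.39, -0.77, -0.49, -0.74 and -0.59 with bioB and to -0.37, -0.42, -0.43, -0.81, -0.53, -0.78 and -0.63 without it. With the 3' minus 5' covariate URA2 on day 2 was at 0.27 and not called. From day 2 to day 6 FUI1, PPR1, CDC21 and FCY2 turned with it (-0.44, -0.11, 0.35 and -0.067).

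Small uncalled differences also turned: URA10 and FCY22 on day 10 with quantile normalization (-0.014 and -0.19), FCY22 on day 10 and FCY1 from day 2 to day 6 with median centring (-0.013 and -0.027), CDD1 from day 2 to day 6 with quantile normalization (-0.019), and from day 2 to day 6 FCY1 and CDD1, which ran from -0.078 to 0.055 and from -0.0028 to 0.077 as single arrays were left out.

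Leaving out each of the 12 arrays, the members called higher on day 2 numbered 0 to 1, and those called lower on day 6 between 9 and 10. Of the arrays, 3 a time limit what small differences can show, and dim genes are compressed towards the floor.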

Other observations

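The 20 genes next to the 10 members on the chromosomes, by the order of genes in RefSeq's S288C table, include none of the members. Of these, 17 were measured. From day 6 to day 10 the neighbours were called higher in 1 case and lower in 8 (28.8% and 32.1% of all genes; median -0.14), where all 10 members were higher. On day 6 against log phase 6 neighbours were higher and 7 lower (41.6% and 41.1% of all genes; median -0.15). The difference between members and neighbours was not tested.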
